A study of Mus musculus with 42 samples.

Results

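Live CD45+NK1.1+NKp46+ cells sorted from the uterus are meant to be natural killer (NK) cells and group 1 innate lymphoid cells (ILC1), and a small number of cells with the transcripts of neutrophils or of monocytes were captured with them. These cells were selected on raw counts of unique molecular identifiers (UMIs, 1 per captured transcript molecule) among 15175 single cells, of which 13084 had under 10% of their UMIs from mitochondrial genes. A neutrophil-side cell held at least 10 UMIs of S100a8 and S100a9 together and at least 1 UMI of Cxcr2, Retnlg and Hp together. A monocyte-side cell held at least 3 UMIs of Ace, Ear2 and Ceacam1 together. Both kinds had at most 2 UMIs of C1qa, C1qb and C1qc together and none of Cd3e, Cd79a or Ncr1, genes of macrophages, T cells, B cells and NK cells. The neutrophil side held 7 cells, 0.0535% of the 13084 (exact binomial interval 0.0215 to 0.110%), and the monocyte side held 89 cells, 0.680% (0.547 to 0.836%). No cell met both rules, so 96 cells were described, and the levels of the genes named in the rules are descriptions of how the cells were chosen.

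The cells came from wild-type adult female C57BL/6 mice without treatment, either virgin or at day 8.5 of gestation (gd8.5), and the study pooled the uteri of more than 1 mouse per condition, tagged the sorted cells of each condition and mixed them before capture on the BD Rhapsody system. The count files labelled virgin and gd8.5 carried the same 15175 cell numbers with different genes, 6821 and 28416 with none in common, so they were joined by cell number into 1 table of 35237 genes. No tag of the condition was given per cell in these files, so virgin and gd8.5 cells could not be separated, all cells formed 1 pooled sample, and no test between conditions or between kinds of cell was made. The sorted tissue-resident NK (trNK) cells of the same series, sequenced in bulk, were used to look for the same transcripts in a purer NK gate.

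Neutrophils are short-lived granulocytes that leave the bone marrow in response to chemokines read by Cxcr2, carry antimicrobial proteins in granules made in a fixed order during maturation, and hold large amounts of the S100A8/S100A9 complex, calprotectin. Monocytes of the mouse are divided into classical cells, which carry Ly6C and CCR2 and enter inflamed tissue, and nonclassical cells, which depend on the nuclear receptor Nr4a1, carry CX3CR1 and patrol the vessel wall. Both kinds reach the uterus with the blood, and monocytes there can turn into macrophages or cells with the features of dendritic cells.

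The promoters of the genes that chose the cells are shown because S100a8 and S100a9, which lie side by side on mouse chromosome 3, were found together in every neutrophil-side cell, while Ace and Ear2 were each found in most monocyte-side cells. The sequences are from RefSeq (GRCm38.p6), on the strand of the gene, from 250 bases before to 50 bases after the start, and 7 of the 8 positive rule genes had a window in that table. Capitals mark 3 patterns, each searched on both strands. The TATA box was searched as TATAAA. The core of sites for the myeloid factor PU.1 was searched as GAGGAAG. The pattern of C/EBP sites was searched as TTGCNNAA. Of 32851 promoters of the same length, 13.6% held TATAAA, 13.6% GAGGAAG and 10.8% TTGCNNAA. The windows are chr3:90668821-90669120 for S100a8, chr3:90695672-90695971 for S100a9 on the minus strand, chr11:105967698-105967997 for the upstream start of Ace and chr14:44102404-44102703 for Ear2.
S100a8: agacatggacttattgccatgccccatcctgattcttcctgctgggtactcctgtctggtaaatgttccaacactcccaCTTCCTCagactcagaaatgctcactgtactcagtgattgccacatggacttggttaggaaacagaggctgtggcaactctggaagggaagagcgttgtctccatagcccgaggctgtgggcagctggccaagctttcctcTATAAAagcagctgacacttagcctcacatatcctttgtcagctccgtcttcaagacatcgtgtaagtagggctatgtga
S100a9: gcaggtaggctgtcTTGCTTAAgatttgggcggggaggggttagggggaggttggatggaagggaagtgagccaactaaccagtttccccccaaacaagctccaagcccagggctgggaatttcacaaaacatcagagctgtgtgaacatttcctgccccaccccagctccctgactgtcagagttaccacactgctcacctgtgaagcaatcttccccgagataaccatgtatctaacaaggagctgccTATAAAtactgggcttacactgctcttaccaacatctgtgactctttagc
Ace: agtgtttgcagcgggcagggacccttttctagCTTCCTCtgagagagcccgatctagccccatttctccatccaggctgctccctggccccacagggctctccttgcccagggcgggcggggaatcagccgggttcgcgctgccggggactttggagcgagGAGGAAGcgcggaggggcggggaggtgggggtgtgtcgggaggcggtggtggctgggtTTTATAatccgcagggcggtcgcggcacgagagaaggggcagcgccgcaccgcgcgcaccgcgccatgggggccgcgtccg
Ear2: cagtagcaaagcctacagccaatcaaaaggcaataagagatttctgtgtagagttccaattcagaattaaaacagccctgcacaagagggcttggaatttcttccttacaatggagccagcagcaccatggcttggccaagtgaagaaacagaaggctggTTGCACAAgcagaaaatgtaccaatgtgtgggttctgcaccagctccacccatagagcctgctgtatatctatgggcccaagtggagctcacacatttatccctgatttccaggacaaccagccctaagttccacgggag

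In the S100a8 window TATAAA began at base 221 and the complement of GAGGAAG at base 80, while the S100a9 window held TTGCNNAA at base 15 and TATAAA at base 251. The Ace window held GAGGAAG at base 162 and its complement at base 33, with the complement of TATAAA at base 220, and the Ear2 window held TTGCNNAA at base 161. The Retnlg window held the complement of TTGCNNAA at base 5, and windows of Cxcr2 and Ceacam1 held none of the 3 patterns. A match of letters is not a measurement of binding, and no data on binding were analysed.

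The neutrophil side rested on few molecules. Its 7 cells held 12112 UMIs in all, from 887 to 3929 per cell with a median of 1328, so that 1 UMI was worth 82.6 CPM (UMIs scaled to a common total), and the deepest cell gave 32.4% of them. The 89 monocyte-side cells held 237171 UMIs, from 626 to 8458 per cell with a median of 2260. Median depth was 3249 UMIs in 879 C1q macrophages (at least 10 UMIs of C1qa, C1qb and C1qc together), 6313 in 7165 NK and ILC1 cells (a UMI of Ncr1) and 1782.5 in 256 B cells (at least 2 UMIs of Cd79a). All of these lacked Cd3e, each kind lacked or was low in the genes that defined the others, and the macrophages and B cells held no Ncr1. Levels are given as summed CPM with an exact 95% Poisson interval, folds with an exact interval of the same kind, and all intervals cover counting error only, not differences between cells or mice. A side without a UMI was taken as 3 UMIs over that side to give a fold. The exact upper limit for no UMI is above 3, so the exact lower limit of such a fold is smaller.

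The thresholds of the neutrophil rule fell in a gap. S100a8 and S100a9 together gave 19 UMIs in the lowest of the 7 cells, a median of 72 and 700 in the highest. Just outside were a cell with 9 such UMIs and 6 of the companion genes, and a cell with 8 and 11. Neither held a UMI of the excluded genes, so only the S100 limit left them out. Of 9 cells that met the positive thresholds, 2 were left out for Ncr1, a cell with 67 S100 UMIs and 1 of Ncr1, and a cell of 10921 UMIs with 21 S100 UMIs and 7 of Ncr1. Either S100 transcript was seen in only 74 of the 13084 cells, 7 of them the cells described. On the monocyte side the sum of Ace, Ear2 and Ceacam1 ran from 3 over a median of 6 to 22, with 18 cells exactly at 3, 26 cells just outside at 2 and 58 at 1. Of 157 cells that met the monocyte threshold, 68 were left out, 35 with C1q, 32 with Ncr1 and 4 with Cd79a, some for more than 1 gene. The study kept cells of over 200 and under 2500 UMIs, which would leave 6 and 51 of the cells described, the deepest neutrophil-side cell not among them.

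S100a8 and S100a9, the subunits of calprotectin, were counted in all 7 neutrophil-side cells. From the deepest to the shallowest cell, S100a8 gave 360, 32, 40, 16, 31, 51 and 7 UMIs, and S100a9 gave 340, 21, 39, 10, 41, 38 and 12. Together they took 8.57% (8.08 to 9.08%) of the UMIs of the neutrophil side and 4.13% (3.71 to 4.58%) without the deepest cell, against no UMI in the monocyte side and 2 UMIs in the C1q macrophages. Cxcr2, the chemokine receptor of circulating neutrophils, gave 0, 6, 7, 1, 7, 5 and 2 UMIs in the same order, Retnlg, a resistin-like protein of granulocytes, 0, 10, 23, 0, 20, 2 and 1, and Hp, which encodes haptoglobin, 4, 1, 3, 2, 6, 3 and 0. Thus 6 cells carried Cxcr2 and the deepest cell entered through Hp.

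Neutrophil genes that the rule did not use were present in the same cells. Csf3r, the receptor of granulocyte colony-stimulating factor, gave 0, 2, 3, 5, 6, 8 and 7 UMIs, so the 6 cells with Cxcr2 were also the 6 cells with Csf3r. Its summed level was 2559 CPM (1739 to 3633), against 152 CPM (106 to 210) in the monocyte side and 1.25 CPM in NK and ILC1 cells. Csf3r is a member of a list of 17 neutrophil genes, which together stood at 11559 CPM (9723 to 13640) in the neutrophil side, 578 CPM (485 to 683) in the monocyte side and 232 CPM in C1q macrophages. A UMI was found for 15 of them in the neutrophil side, 13 in the monocyte side and 15 in C1q macrophages. Mmp9, the gelatinase of neutrophil granules, was found in 4 cells (1238 CPM), Clec4d and Trem1, activating receptors of myeloid cells, in 5 cells each (1156 and 908 CPM), and Stfa2l1, a stefin of granulocytes, in 4 cells (1651 CPM). No UMI of Mmp9 or Stfa2l1 was seen in the monocyte side or in the C1q macrophages. Ly6g, the target of the antibody 1A8, gave only 2 UMIs in 2 cells.

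The deepest cell stood apart from the other 6. It alone held Camp, the cathelicidin of specific granules (101 UMIs), Ltf, which encodes lactoferrin (41 UMIs), Chil3, a chitinase-like lectin (79 UMIs) and Fcnb, a ficolin (10 UMIs), and it held 96 of the 101 UMIs of Lcn2, the siderophore-binding lipocalin. Cybb, the catalytic subunit of the phagocyte oxidase, was also counted in this cell alone, with 20 UMIs, as was most of Cd177, a surface protein of neutrophils (11 of 12 UMIs). The same cell held the 17 UMIs of the dividing cell genes found on this side, 8 of Top2a, 6 of Stmn1, 2 of Ube2c and 1 of Cdk1, and 26 of the 35 UMIs of Hmgb2, a chromatin protein. Mpo, Elane, Prtn3, Ctsg and Prss57, the genes of the azurophil granules made earlier in maturation, had no UMI in any of the 7 cells. A count of 0 on this side has an exact upper limit of 305 CPM for each. The deepest cell had no UMI of Cxcr2, Retnlg, Csf3r or Il1b, and its label as a neutrophil rests on the S100 and granule genes. Sums over the 7 cells mix its granule genes with the genes of the other 6.

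**Figure D1:**
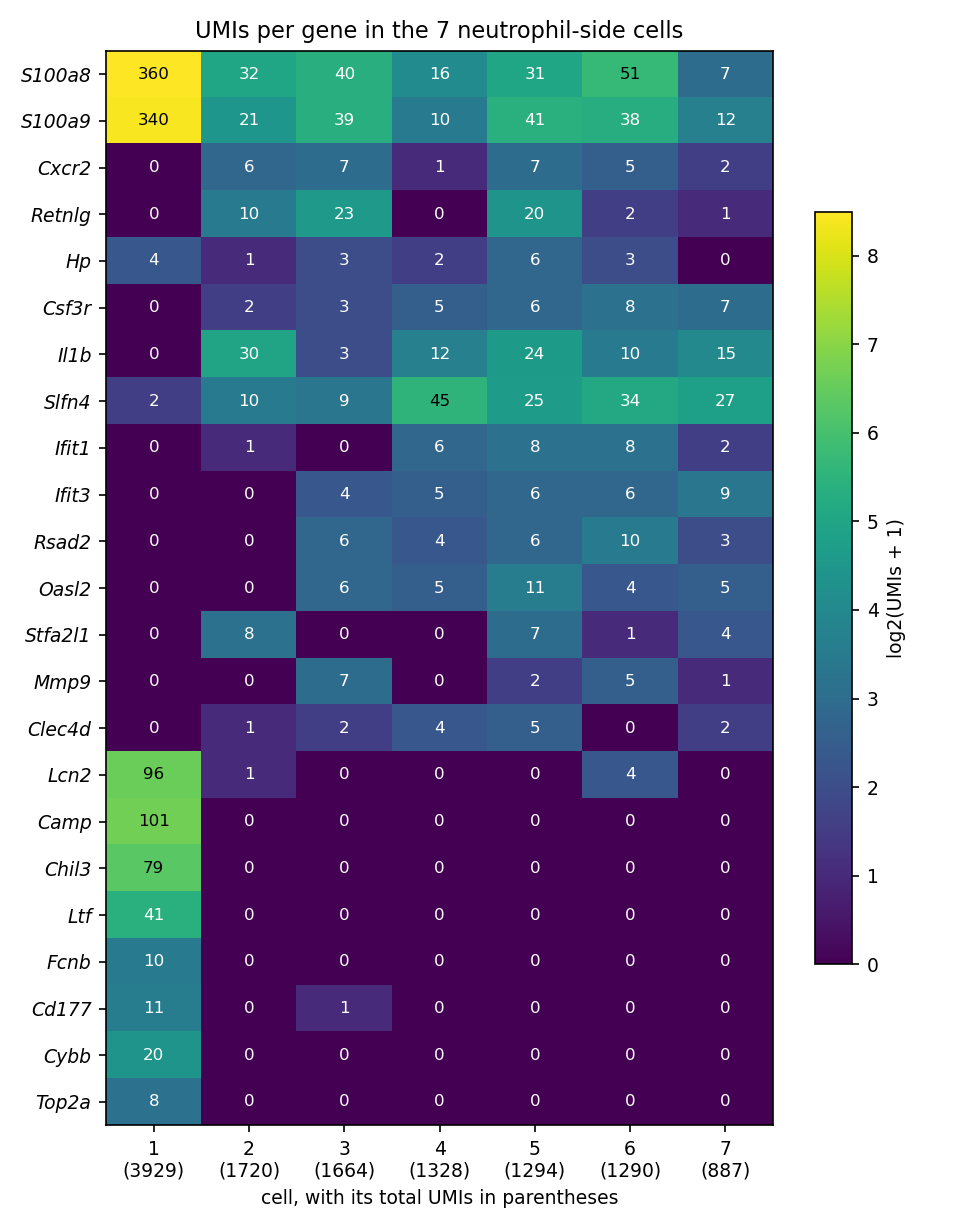
UMIs of neutrophil, granule, interferon and dividing cell genes (rows) in each of the 7 neutrophil-side cells (columns, ordered by total UMIs); the number in each box is the UMI count. The deepest cell, with 3929 UMIs, held Camp, Ltf, Chil3 and Fcnb, and the other 6 held Cxcr2 and Csf3r.

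Interferon-induced genes were unevenly spread over the 7 cells. Slfn4, a schlafen of myeloid cells, gave 2 UMIs in the deepest cell and then 10, 9, 45, 25, 34 and 27, in all 12549 CPM (10634 to 14711). Ifit1, which encodes a protein that binds foreign RNA, gave 0, 1, 0, 6, 8, 8 and 2 UMIs. Ifit3, of the same family, gave 0, 0, 4, 5, 6, 6 and 9. Each gene was thus found in 5 of the 7 cells, and neither in the deepest. Rsad2, the antiviral enzyme viperin, gave 0, 0, 6, 4, 6, 10 and 3, and Oasl2, an oligoadenylate synthetase-like protein, 0, 0, 6, 5, 11, 4 and 5. The second cell, of 1720 UMIs, held 1 UMI of Ifit1 and none of Ifit3, Rsad2, Oasl2 or Isg15. Ifitm3, of the same list, was found in all 7 cells, with 12 of its 32 UMIs in the deepest.

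Il1b, the precursor of interleukin 1 beta, was the most abundant cytokine transcript of the lists, with 0, 30, 3, 12, 24, 10 and 15 UMIs (7761 CPM, 6272 to 9497). It was absent from the deepest cell and present in the 6 others. Nlrp3, the inflammasome sensor, had 9 UMIs in 4 cells, while Casp1 and Casp4 had 2 UMIs each and Pycard none. Osm, oncostatin M, had 7 UMIs in 3 cells, Tnf 5 UMIs in 2 cells and Cxcl2 3 UMIs in 1 cell. Among receptors, Clec7a, the beta-glucan receptor dectin-1, was found in 6 cells with 27 UMIs and Clec4e in 5 cells with 16 UMIs. Mcl1, on which neutrophils depend to survive, was found in all 7 cells (2972 CPM, 2082 to 4115). Of the angiogenic and remodelling genes, Mmp9 was the only 1 of 16 measured with over 10 UMIs.

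Neutrophil-side cells were compared with the monocyte side over the 2390 genes with at least 20 UMIs over both. At least 4-fold higher in the neutrophil side were 95 genes, 3.97% of those tested, 5 of them rule genes. Of the 95, 8 had no monocyte-side UMI, so they met the limit of 20 UMIs only through the neutrophil side, which fixed their call. Without the deepest cell of each side 114 genes passed, and 72 were in both lists, 75.8% of the former and 63.2% of the latter. With every cell thinned to 800 UMIs, 36 genes passed toward the neutrophil side. Over all 2390 genes the median log2 ratio of neutrophil to monocyte side was 0.38, but this value is lifted by the 768 genes with no neutrophil UMI, which were taken as 3. It was -0.07 over the 1622 genes with a UMI there, and 31.8% of the 2390 genes had a higher CPM in the neutrophil side. At least 4-fold higher in the monocyte side were 85 genes (3.56%), of which 72 rested on 1 to 3 neutrophil UMIs. With 0 to 2 UMIs on the lower side taken as 3, 37 genes remained above 4-fold (1.55%), here called the stricter count, and with every cell thinned 41 genes passed.

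Folds toward the neutrophil side were ranked among genes with at least 20 UMIs on the side and a UMI in at least 20% of its cells. Lcn2 and Stfa2l1 had no monocyte-side UMI. With 3 UMIs taken in its place they stood at 659-fold and 131-fold, with exact lower limits of 526 and 96.7. Beside these and the rule genes, the largest folds were 17.9-fold (10.6 to 29.9) for Anxa1, the glucocorticoid-induced annexin, 16.9-fold (10.1 to 28.0) for Csf3r, 16.5-fold (13.2 to 20.6) for Slfn4, 11.9-fold (6.96 to 20.1) for Ifit1, 11.5-fold (6.28 to 20.6) for Ifitm1, and 9.79-fold (5.66 to 16.5) for 1600014C10Rik. Of the genes named, Lcn2 and Anxa1 lay mainly in the deepest cell, which held 24 of the 31 UMIs of Anxa1.

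Interferon response genes were the list with the most members over the fold limit. Of 12 members measured, 6 were at least 4-fold higher in the neutrophil side and none in the monocyte side, against 3.97% and 3.56% of all genes, and 8 of 12 had a higher CPM there, against 31.8% of all genes. The median log2 ratio of the list was 1.76, with Mx1 taken as 3 UMIs, against 0.38 for all genes and -0.07 for those with a neutrophil UMI. Ifit1 stood at 2064 CPM (1336 to 3047) against 173 CPM (124 to 234), Rsad2 at 2394 (1604 to 3439) against 270 (208 to 345), an 8.87-fold ratio (5.52 to 13.96), and Ifit3 at 2477 (1671 to 3536) against 367 (294 to 452), a 6.75-fold ratio (4.30 to 10.3). Isg20 was 6.18-fold (2.02 to 16.1) and Isg15 4.69-fold (2.59 to 8.04) higher. The intervals of these genes lay above those of the monocyte side and each ratio came from few cells of the pooled mice.

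The other 6 members did not reach 4-fold in either direction. Ifitm3, which blocks viral entry, was higher in the monocyte side by 1.66-fold (1.17 to 2.45), Irf7, the interferon-induced regulator, by 1.34-fold with an interval that included 1 (0.6004 to 3.70), and Mx1 had no neutrophil UMI. When every cell was thinned to 800 UMIs, Ifit1 was found in 5 of 7 neutrophil-side and 4 of 84 monocyte-side cells, Ifit3 in 5 and 16, Rsad2 in 5 and 14 and Slfn4 in 6 and 25. Before thinning these genes were found in 5, 5, 5 and 7 of the 7 neutrophil-side cells and in 17, 35, 30 and 38 of the 89 monocyte-side cells. In NK and ILC1 cells, with a median of 6313 UMIs, Ifit1 was found in 4.08% of cells before thinning and in 1.33% after it.

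**Figure D2:**
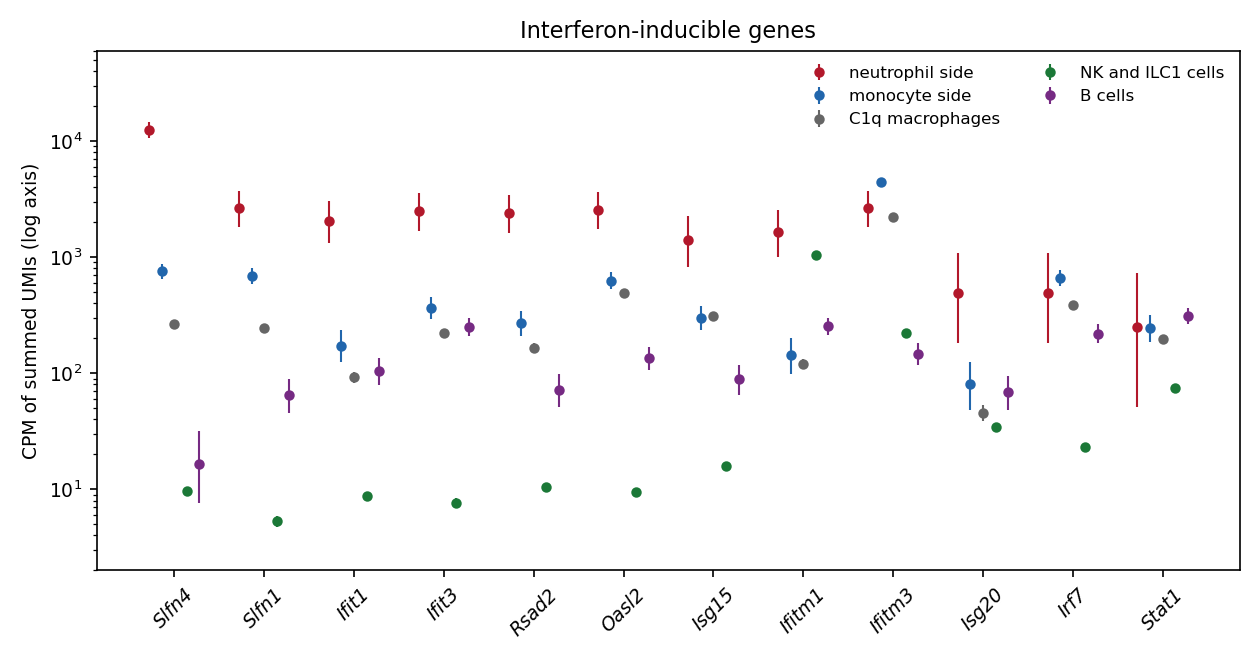
Summed level (CPM, log axis) of interferon-induced genes, Slfn4 and Slfn1 included (horizontal axis) in the neutrophil side, the monocyte side, C1q macrophages, NK and ILC1 cells and B cells (colours); bars are exact 95% Poisson intervals and cover counting error only. Ifit1, Ifit3, Rsad2, Isg15, Isg20 and Ifitm1 lie at least 4-fold above the monocyte side, and Ifitm3 lies below it.

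Other lists held fewer members over the limit, which 3.97% of all tested genes passed toward the neutrophil side and 3.56% toward the monocyte side. All 4 neutrophil genes with enough UMIs passed (Csf3r, Trem1, Fpr2 and Sorl1), as did 1 of 2 gelatinase granule genes (Pglyrp1, a peptidoglycan-binding protein, at 7.97-fold, 5.53 to 11.3). All 4 specific granule genes with enough UMIs passed too, and came almost wholly from the deepest cell. Ltf, Camp and Lcn2 of these had no monocyte-side UMI and met the limit of 20 UMIs only through the neutrophil side. Their calls were fixed by that limit and are not a result about the list. Of 12 chemotaxis and adhesion genes tested, 4 were over 4-fold higher in the neutrophil side. Among them were Fpr2 of the lists above and Cxcr4, the receptor for marrow retention, at 4.01-fold (2.27 to 6.70). Cxcr2 was counted too, but it is a rule gene without a monocyte-side UMI, so its call followed from how the cells were chosen. C5ar1, the receptor of complement C5a, was found in 6 of 7 neutrophil-side cells and in 3 of 89 monocyte-side cells, with 12 and 3 UMIs. Selplg, an adhesion ligand of leukocytes, and Itgb2, the integrin beta chain shared by leukocytes, were within 4-fold of the monocyte side.

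Among the remaining lists, 1 of 6 phagocyte oxidase genes (Ncf1, 4.20-fold, 1.42 to 10.3), 1 of 5 interleukin 1 genes (Nlrp3, 5.87-fold, 2.45 to 12.7), 1 of 6 pattern recognition genes (Clec4e, 6.67-fold, 3.53 to 11.97), 1 of 4 Fc receptor genes (Fcgr3, 4.79-fold, 2.23 to 9.40) and 3 of 7 S100 genes were over 4-fold higher in the neutrophil side. Of all tested genes 3.97% passed toward the neutrophil side and 3.56% toward the monocyte side. With so few members per list, single calls are not read as a result about the list. The S100 genes were the pair of the rule, whose call followed from how the cells were chosen, and S100a11, at 7.40-fold (5.25 to 10.3). Il1b missed the limit at 3.98-fold (3.16 to 4.98), with 270 of the 462 monocyte-side UMIs in 4 cells. None of 5 angiogenic and remodelling genes and none of 9 survival genes passed in either direction, and 1 of 10 transcription factor genes (Cebpd) and 1 of 7 cytokine genes (Osm) passed toward the neutrophil side. Of 7 classical monocyte genes, 2 passed toward the neutrophil side, Chil3 among them, and Ly6c2 and Plac8 passed toward the monocyte side. Ratios toward the monocyte side over 4-fold in the cytokine, dendritic cell and NK lists (Ccl4, Ccl9, Itgax and Ccl5) each rested on 1 neutrophil UMI and were lost under the stricter count.

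Toward the monocyte side, the 12 largest ratios all rested on 1 to 3 neutrophil UMIs. Their order was partly set by the floor, since a gene with no neutrophil UMI was taken as 3 and ranked below one with 1. Cd74, the invariant chain of MHC class II, had 1821 UMIs in 67 monocyte-side cells and 1 UMI in the neutrophil side, a ratio of 93.0 with a counting interval from 16.7 to 3675. Psap, the precursor of the saposins, had 1422 UMIs in 88 cells and 1 UMI. H2-Ab1 followed at 55.5-fold, Hspa1b, a heat shock protein, at 40.7-fold, H2-Aa at 22.04-fold, Jun, an early response factor, at 18.5-fold and Tmsb10, a thymosin, at 17.0-fold, before Ctss, the protease cathepsin S, at 15.7-fold with 920 UMIs in 86 cells and 3 UMIs. Ms4a6c, a membrane protein of monocytes, had 469 UMIs in 74 cells and none in the neutrophil side. With 3 UMIs taken in place of none it stood at 7.98-fold, and the exact lower limit is smaller. The MHC class II levels were carried by 23 of the 89 cells. In the other 66 H2-Ab1 stood at 70.6 CPM (35.2 to 126) and H2-Aa at 109 CPM (63.5 to 175), against 82.6 CPM and 165 CPM in the neutrophil side. Over all 89 cells, 4 of 6 MHC class II genes tested passed 4-fold under both treatments of low counts, and of 11 shared monocyte genes 5 passed, 4 of them under the stricter one. Of all tested genes 3.56% passed toward the monocyte side, and 1.55% under the stricter treatment.

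The neutrophil side held little ribosomal protein and heat shock message. Genes of ribosomal proteins took 2.34% (2.08 to 2.63%) of its UMIs, from 1.28 to 3.03% in single cells, against 8.06% (7.95 to 8.17%) in the monocyte side, 3.57 to 12.98% in single cells, so the ranges over cells did not overlap. They took 7.87% in C1q macrophages, 14.9% in NK and ILC1 cells and 12.7% in B cells. Single cells of these kinds ranged from 1.53 to 29.8%, 1.42 to 36.1% and 2.29 to 31.6%, and these ranges did overlap that of the neutrophil side. Of the 85 genes called higher in the monocyte side, 23 were ribosomal, 31.1% of the 74 ribosomal genes tested against 3.56% of all genes. With 0 to 2 UMIs taken as 3, 15 of the 23 remained among the 37 genes. The 6 heat shock genes together took 0.0991% (0.0512 to 0.173%) against 1.16% (1.12 to 1.21%). The summed share of the 8 early response genes went the other way. It was 1.23% (1.04 to 1.44%) in the neutrophil side, 1.74% without its deepest cell, 0.944% (0.905 to 0.983%) in the monocyte side and 1.36% in C1q macrophages. Jun, 1 of the 8, did not follow the sum and stood 18.5-fold higher in the monocyte side, on 1 neutrophil UMI. Thinned to 800 UMIs, the neutrophil-side cells showed a median of 470 genes (444 to 506) and 84 monocyte-side cells 563 (472 to 613).

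On the monocyte side, Ace, which encodes angiotensin-converting enzyme, was counted in 75 of 89 cells at 1383 CPM (1237 to 1541), Ear2, an eosinophil-associated ribonuclease, in 65 cells at 919 CPM (801.2 to 1050) and Ceacam1, an adhesion receptor, in 46 cells at 438.5 CPM (358 to 531). All 3 were found in 33 cells, Ace with Ear2 in 18, Ace with Ceacam1 in 10, Ear2 with Ceacam1 in 3, Ace alone in 14 and Ear2 alone in 11, while no cell entered by Ceacam1 alone. Ear2 is 1 of a family of near-identical genes, as are Ly6c2, Stfa2l1 and Hspa1b, and how the counting divided reads among such copies was not tested. In the neutrophil side Ace and Ear2 had no UMI.

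Genes of nonclassical monocytes that the rule did not use were found in 14 to 76 of these cells, 6 of the 13 in over 44 cells. All 13 had UMIs in the monocyte side, and 9 of them had none in the neutrophil side, as had 768 of all 2390 tested genes. With 3 UMIs taken in place of none, only Gngt2 reached 4-fold, at 4.12-fold, and the exact lower limit is smaller. Of all tested genes 3.56% passed toward the monocyte side, 1.55% under the stricter count, so this single call is not read as a result about the list. Cd9, a tetraspanin of the same list, was 7.62-fold (2.69 to 19.1) higher in the neutrophil side. Nr4a1, on which nonclassical monocytes depend, was found in 76 of 89 cells at 2682 CPM (2477 to 2898), Gngt2, a G protein subunit, in 76 at 1020 CPM (896 to 1157), Itgal, the integrin LFA-1 alpha chain, in 67 at 877 CPM, Pou2f2, a transcription factor of these cells, in 58 at 906.5 CPM and Adgre4, an adhesion G protein-coupled receptor, in 51 at 535 CPM. Cx3cr1, the fractalkine receptor, was found in 44 cells, Spn, which encodes CD43, in 41, and Treml4 in 30. Thinned to 800 UMIs, Nr4a1 was found in 63 of 84 monocyte-side cells, 26.0% of C1q macrophages and 10.5% of NK and ILC1 cells, against 85.4%, 44.9% and 33.7% of them before thinning. Cx3cr1 was found in 27.4% of monocyte-side cells and 36.6% of C1q macrophages after thinning, and in 49.4% and 65.2% before it. In the neutrophil side Nr4a1 had 28 UMIs in 5 cells, a level of 2312 CPM (1536 to 3341) that overlapped the monocyte interval, and Itgal had 7 UMIs in 4 cells. Klf2, a transcription factor of the list, had 15 UMIs in 5 cells, 3.67-fold (1.96 to 6.42) above the monocyte side, where it was found in 43 cells.

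Genes of classical monocytes were present as well. Ly6c2, which encodes the antigen that marks classical monocytes, was found in 54 of 89 cells at 3976 CPM (3726 to 4238), with 40 cells at 5 or more UMIs and 35 cells at none. Plac8 was found in 82 cells at 5216 CPM and Ccr2, the receptor for entry into inflamed tissue, in 49 cells at 805.3 CPM (695 to 928). Ms4a4c, a membrane protein, was found in 62 cells at 843 CPM. Other genes of the list had fewer UMIs, with 41 of Chil3, 36 of Cd14, 19 of Fn1, 4 of F13a1 and 2 of Vcan over the 89 cells. Thinned to 800 UMIs, Ly6c2 was found in 48 of 84 monocyte-side cells, 57.1%, against 60.7% before thinning. The same share was 9.52% in C1q macrophages and 9.02% in NK and ILC1 cells after thinning, and 18.7% and 18.5% before it.

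**Figure D3:**
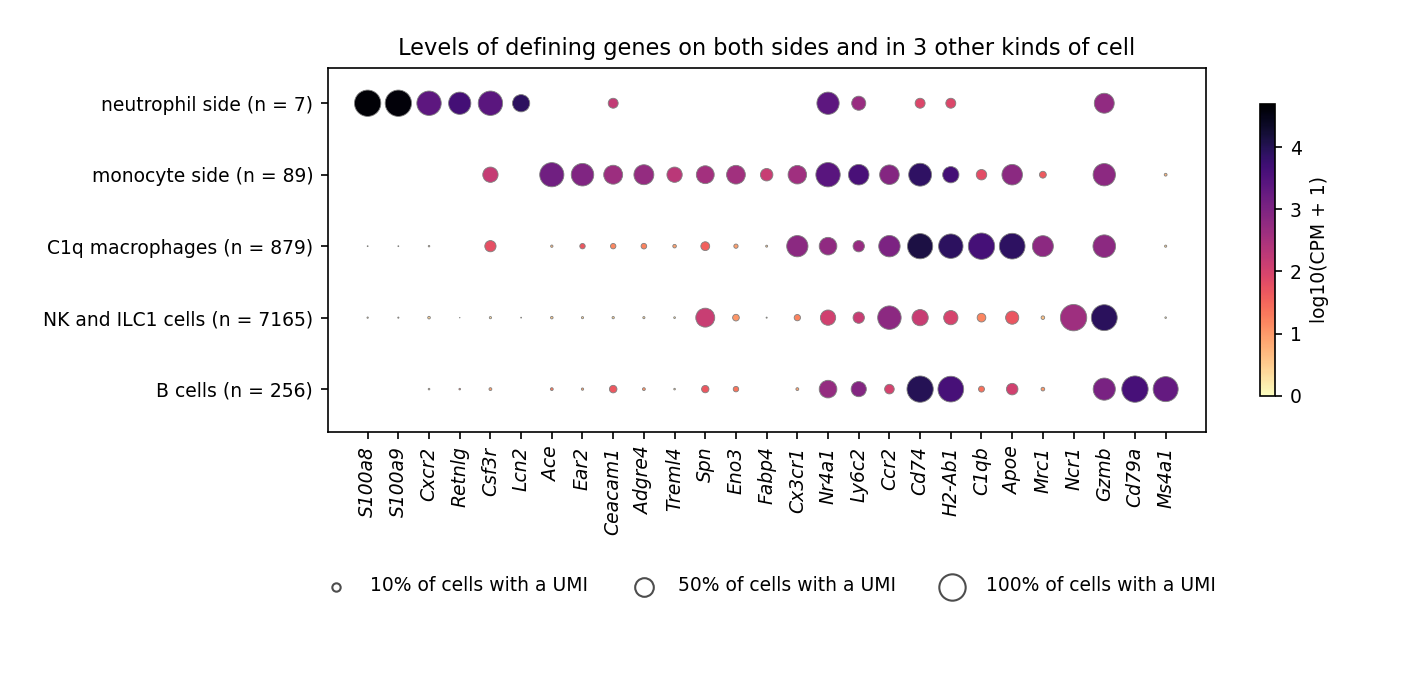
Genes of the rules and of the marker lists (columns) in the neutrophil side, the monocyte side, C1q macrophages, NK and ILC1 cells and B cells (rows); dot area is the percentage of cells with a UMI and colour the log10 of the summed CPM plus 1. S100a8, S100a9, Cxcr2 and Csf3r have large dots in the neutrophil row, and Ace and Nr4a1 in the monocyte row.

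Set against all other cells under the mitochondrial limit, only genes with at least 20 UMIs on the side itself were taken. At least 4-fold higher were 43 of 77 such genes in the neutrophil side, 55.8%, and 420 of 2277 in the monocyte side, 18.4%. Genes thus entered by their level in the chosen cells, so both shares were partly set by that limit and are not read as a result. They also differ in how many genes could be read at the depth of each side and are not compared. Ratios were ranked among genes with at least 20 UMIs on the side and a UMI in at least 20% of its cells. The largest of the monocyte side outside its rule were 296-fold (212 to 413) for Serpinb10, a serine protease inhibitor, 281-fold (171 to 461) for Fabp4, a fatty acid binding protein, 225-fold (192 to 263) for Ly6i, 206-fold (123 to 339) for Trem3 and 175-fold (140 to 218) for Adgre4. Fabp4 and Adgre4 belong to the nonclassical list, as does Treml4, at 128-fold (89.5 to 180).

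The monocyte side was also set against the C1q macrophages, over 9632 genes. At least 4-fold higher in the monocyte side were 190 genes (1.97%), 4 of them rule genes. Apart from Ace, and under the same limits, the largest were Serpinb10, at 168-fold (73.6 to 474), S1pr5, the receptor that guides cells out of tissue toward blood, at 139-fold (55.4 to 446), Hp at 83.5-fold (47.0 to 159), Trem3 at 77.9-fold (29.6 to 259), Fabp4 at 57.7-fold (26.1 to 145), Ly6i at 52.1-fold (40.1 to 68.3) and Eno3 at 47.6-fold (30.6 to 76.1). Ly6c2 was 7.96-fold (7.34 to 8.62) and Pglyrp1 10.7-fold (8.34 to 13.8) higher.

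In the other direction, 372 genes were at least 4-fold lower in the monocyte side (3.86%), 166 (1.72%) with 0 to 2 UMIs taken as 3. Beside the C1q genes of the rule, these included Ccl7, with 1 UMI in the monocyte side against 662 CPM in the macrophages, C3ar1, the receptor of complement C3a, with 1 UMI against 625 CPM, and Stab1, a scavenger receptor, with 1 UMI against 585 CPM. Ccl12 had no UMI in the monocyte side and was 75.2-fold lower with 3 taken in its place. With 0 to 2 UMIs taken as 3, Ccl7, C3ar1 and Stab1 stood at 52.3-fold, 49.4-fold and 46.2-fold, below Ccl12. Apoe was present in 54 of 89 cells but stood at 683 CPM (582 to 797) against 7975 CPM. Cst3, Ctss, Mpeg1 and Ms4a6c, which both kinds of cell share, were within 2-fold of the macrophages.

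The monocyte side was not uniform. The summed UMIs of H2-Aa, H2-Ab1 and H2-Eb1, which encode MHC class II chains, were 0 in 42 cells, 1 to 3 in 22, 6 in 2, and 10 to 391 in 23 cells. A limit of 10 was set after these values were seen, so the comparison of the 23 cells with the other 66 is a description. The 23 cells had a median of 3131 UMIs and the 66 cells a median of 2091. All 23 held Cd74, at 20707 CPM, against 885 CPM in the others, a ratio of 23.4 (19.7 to 28.0).

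**Figure D4:**
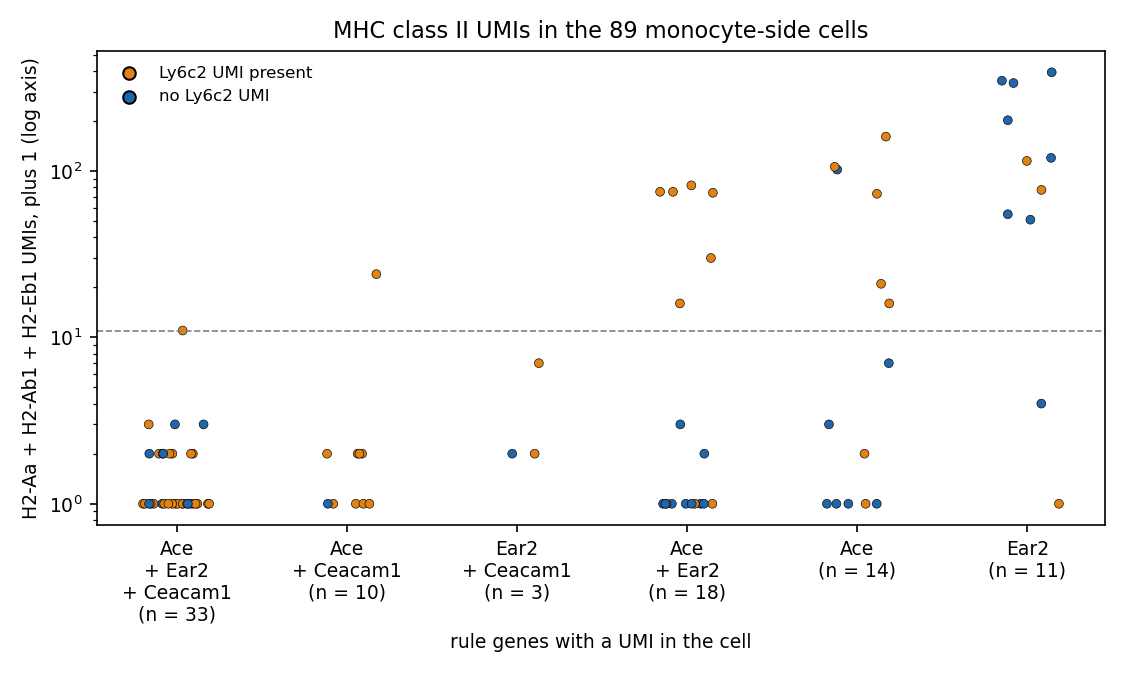
Summed UMIs of H2-Aa, H2-Ab1 and H2-Eb1 plus 1 (log axis) in each monocyte-side cell, by the rule genes it held; colour gives whether it held a Ly6c2 UMI, points are spread sideways for sight, and the dashed line is the limit of 10 set after the values were seen. Of 33 cells with all 3 rule genes 1 is at the limit, and of 11 cells with Ear2 alone 9 lie above it.

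How a cell entered the rule went together with its MHC class II level. Of the 33 cells with Ace, Ear2 and Ceacam1, 1 reached the limit, as were 6 of 18 with Ace and Ear2, 1 of 10 with Ace and Ceacam1, none of 3 with Ear2 and Ceacam1, 6 of 14 with Ace alone and 9 of 11 with Ear2 alone. Since the rule genes define these classes, they overlap with the genes compared. The 9 cells with Ear2 alone included 2 with Ly6c2, and of the 14 cells at or over the limit with Ace 13 held Ly6c2. Both sorts of cell were therefore among the 23.

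All 13 nonclassical genes had a lower summed level in the 23 cells, though the intervals of Adgre4 and Cd9 included a ratio of 1. The share of all genes lower in the 23 cells is not given here. Genes of this list were also lower in the 11 cells with Ear2 alone than in the 75 with Ace. Itgal was 7.93-fold (3.34 to 24.7) lower there, while the intervals of Cd36 and Cd9 included 1. These differences are thus bound up with how the cells were chosen. Spn was 8.55-fold (3.52 to 27.0), Itgal 6.26-fold (3.76 to 11.2), Treml4 4.38-fold (1.74 to 14.2) and Nr4a1 2.52-fold (2.05 to 3.13) lower than in the 66 cells. Of the rule genes, Ceacam1 was 10.3-fold (4.28 to 32.5) and Ace 1.99-fold (1.52 to 2.64) lower, which is bound up with how the cells were chosen, as 9 of the 23 entered by Ear2 alone. Pglyrp1 had 1 UMI in the 23 cells against 112 in the 66, and S1pr5 1 against 47. Ccr2 was 2.97-fold (2.20 to 4.02) higher, and Ciita, the master regulator of MHC class II, had 17 UMIs against 1. Il1b was 4.95-fold (4.03 to 6.12) higher, but 270 of its 333 UMIs lay in 4 cells with Ear2 alone. In the 19 others it stood at 1033 CPM (794 to 1321), an interval that overlapped that of the 66 cells (827 CPM, 691 to 983). Summed over the 23 cells, Ear2 and Ly6c2 moved little, with ratios of 1.01 (0.761 to 1.36) and 1.20 (1.04 to 1.38), both toward the 66 cells. These sums mixed unlike cells. Ly6c2 was found in 13 of the 14 cells with Ace and in 2 of the 9 with Ear2 alone. Ear2 was found in 7 of the 14 and, by the rule, in all of the 9.

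**Figure D5:**
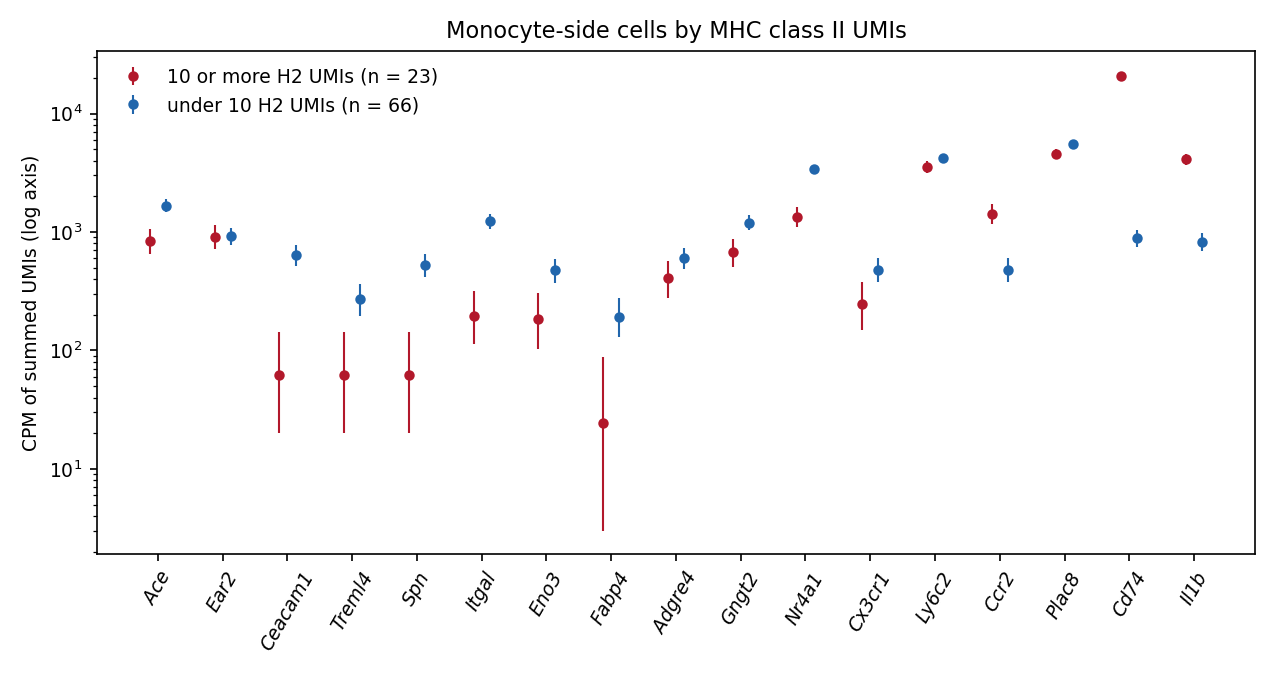
Summed CPM (log axis) of genes in the 23 monocyte-side cells with 10 or more MHC class II UMIs and in the other 66, with exact 95% Poisson intervals of counting error. Cd74, Il1b and Ccr2 lie higher in the 23 cells, Ceacam1, Spn, Itgal and Treml4 lower, and Ear2 about level.

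Of the genes in the dendritic cell list, Itgax, which encodes CD11c and is also made by monocytes and macrophages, was the most widespread, with 40 UMIs in 16 of the 23 cells and 60 UMIs in 29 of the 66. At least 1 UMI of the list was found in 47 of the 89 cells. The other genes were found in fewer cells. Clec10a, a galactose-binding lectin, had 16 UMIs in 4 of the 23 cells and 2 UMIs in 2 of the 66, and Clec9a, a receptor of cross-presenting dendritic cells, had 7 UMIs in 4 of the 23 and none in the 66. Cd209a, the lectin DC-SIGN of monocyte-derived dendritic cells, had 44 UMIs in 3 cells, and Mgl2, a related lectin outside the list, 53 UMIs in 5 cells, with none of either in the 66. Xcr1, the chemokine receptor of cross-presenting dendritic cells, had 15 UMIs in 1 cell, the deepest of the monocyte side with 8458 UMIs, which also held the 3 UMIs of Flt3 and entered by Ear2 alone. Zbtb46 and Siglech had none. Monocyte genes differed among the 4 cells that held Cd209a or Xcr1. A cell with 4 UMIs of Cd209a held 30 of Ly6c2, 7 of Ccr2 and 3 of Ace. The other 3 cells held none of Ly6c2 or Ace and 10, 1 and 0 UMIs of Ccr2, and they are counted here by the rule alone.

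Genes of other cells were low but present in both sides. The sort gate selected NK1.1 and NKp46, yet by rule no cell held Ncr1, and Klrb1c, which encodes NK1.1, was found in 1 of 7 neutrophil-side and 8 of 89 monocyte-side cells (8.99%), against 9.22% of C1q macrophages, 8.59% of B cells and 75.2% of NK and ILC1 cells. The 17 NK genes took 0.173% of neutrophil-side UMIs, 0.321% of monocyte-side UMIs, 0.217% in C1q macrophages, 0.317% in B cells and 2.01% in NK and ILC1 cells. Gzmb stood at 578 CPM (232 to 1191) in the neutrophil side and 654 (555 to 765) in the monocyte side, against 654 in C1q macrophages, 1110 in B cells and 8731 in NK and ILC1 cells. The C1q macrophages and B cells used here were, like both sides, required to hold no Ncr1, so their low shares of NK genes were partly set by that choice. Of 157 cells that met the monocyte-side threshold under the mitochondrial limit, 32 held Ncr1 and were left out. Of the 89 kept, 2 held over 2% of NK genes.

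No UMI of the 7 T cell genes measured, of 11 mast cell, basophil and eosinophil genes, of 4 endothelial, 5 epithelial, 5 erythroid or 5 platelet genes was found in the neutrophil side. In the monocyte side these lists gave 48, 2, 37, 4, 13 and 3 UMIs, while B cell genes gave 61 UMIs against 2, dividing cell genes 19 against the 17 of the deepest neutrophil-side cell, and the 5 stromal genes 24 UMIs in 4 cells against 1, with 16 of Dcn in 1 cell. The 37 endothelial UMIs were all of Pecam1, which leukocytes also carry. Macrophage genes gave 1 UMI in the neutrophil side and 255 in the monocyte side, 162 of them of Apoe, with Cd163, Folr2, Lyve1 and Cbr2 at none. The part of such transcripts in the levels above was not tested. Lyz2 and Csf1r, markers of monocytes, were not analysed in the single cells. In the 12 bulk libraries described below, Lyz2 was counted in all, from 2 to 7849 counts, and Csf1r in 4, with at most 290. Both were highest in CB_int replicate 2.

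In the bulk libraries of sorted trNK cells the rule genes of both sides were rare. The 12 libraries were made from CD45+NK1.1+NKp46+CD49a+CXCR6- cells of wild-type C57BL/6 mice, 2 per stage (virgin uteri and uteri at gd6.5 and gd8.5) and 2 for each gd8.5 subset, labelled CB_low, CB_int and CB_hi by the level of CD55 and 4-1BB, with totals from 11862089 to 22956216 counts. Of the neutrophil-side genes, S100a9, Cxcr2 and Retnlg had no count in any of the 12, S100a8 had at most 11, in 1 virgin library, and Hp had 346 counts in CB_int replicate 2, 103 in CB_low replicate 2 and 1 in CB_int replicate 1. Ncr1 stood at 493 to 1022 RPKM in the same libraries. Several genes of the monocyte lists were counted in all 12, among them Ccr2 at 92.0 to 290.3 RPKM, Plac8 at 98.3 to 499 RPKM, Itgal at 22.1 to 45.2 RPKM, Spn at 14.9 to 22.4 RPKM, Nr4a1 at 4.97 to 59.1 RPKM and Ly6c2 at 2.54 to 237 RPKM, so trNK libraries hold them too. Fewer cells of a kind and less RNA per cell cannot be told apart in bulk.

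Monocyte-side rule genes were seen in 3 or 4 of the 12 libraries. Ear2, at chr14:44102654-44103534 on mm10, had 586 counts (58.0 RPKM) in CB_low replicate 2 and 195 and 34 in CB_int replicates 2 and 1, and none in the 9 others, CB_low replicate 1 included. Ace, at chr11:105967945-105989964, had 37 counts in CB_int replicate 2 and 1 each in 2 other libraries, and Ceacam1 had 145, 82, 59 and 37 counts in CB_low replicate 2, CB_int replicates 2 and 1 and CB_hi replicate 1. Other genes of the nonclassical list were also absent from some or most libraries. Treml4 had 307 counts in CB_low replicate 2, 97 in CB_int replicate 2 and 3 in a gd6.5 library. Adgre4 had 298 and 48 counts in CB_int replicates 2 and 1, 214 and 44 in CB_low replicates 2 and 1 and none in the 8 others. Cx3cr1 was counted in 10 of the 12, with the most, 382, in CB_low replicate 2, followed by 171 in CB_hi replicate 1. For Ear2 the 2 CB_low libraries spanned the whole range of the 12, and no comparison of the groups was made.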

How the data were processed

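The single cells were captured on the BD Rhapsody system, and the deposited values are UMI counts, not normalized, which the authors made with the BD pipeline. The bulk libraries were deposited by the authors as raw read counts per gene with gene lengths on mm10, and the submitters' processing notes name HISAT2 2.1.0, featureCounts and Subread. The study's methods instead name HISAT2 and RSEM for the bulk libraries, and the BD pipeline on GRCm39 for the single cells.

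The cells, gene lists and comparisons were chosen with earlier results of these data known. Cells were selected by the UMI thresholds given above. No doublet caller was run and no doublets were removed. UMIs were summed per kind of cell and divided by their total (CPM), with exact 95% Poisson intervals for levels, exact conditional binomial intervals for folds and Clopper-Pearson intervals for shares. A side without a UMI was taken as 3 UMIs. Calls between kinds of cell required a 4-fold ratio and 20 UMIs over both. All single cells form 1 pooled sample, so no p-value was computed. For shares of cells, each cell was thinned to 800 UMIs, leaving out 5 monocyte-side cells. Named genes were the rule genes, the members of the lists, the 15 largest folds of each side over other cells and the 12 largest in each direction between sides, with at least 20 UMIs on the side and a UMI in 20% of its cells. Genes from comparisons added later (the C1q macrophages and the cells divided by MHC class II) were named after their values were seen. The code of the fold calls was also run on counts drawn from the summed monocyte-side profile. Those counts held no differences between cells, so the run does not cover the spread among cells. Bulk RPKM were computed from the deposited counts and gene lengths. Python 3.11.15, numpy 2.4.6, scipy 1.17.1, pandas 2.3.3 and matplotlib 3.10.9 were used. Part of the lists is not reported here by name.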

Additional observations from a re-analysis of the deposited data

Results flagged for a closer look

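The bulk libraries of sorted trNK cells were not part of the comparison of single cells, and counts above 3 of 5 rule genes appeared there. The highest counts in a library were 11 for S100a8 (virgin replicate 2), 346 for Hp and 37 for Ace (both CB_int replicate 2), and 586 for Ear2 and 145 for Ceacam1 (both CB_low replicate 2). Each was at 0 in at least 8 of the 12 libraries. The source of these counts was not tested.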

How the results depend on the processing

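The count of neutrophil-side cells stayed between 6 and 9 under 9 other limits. The monocyte side held 51 cells between 200 and 2500 UMIs and 59 with at least 5 rule gene UMIs, and 72 to 115 under the other 6 limits. The 95 genes higher in the neutrophil side became 327 and 30 at folds of 2 and 8, 220 and 34 with 10 and 50 UMIs required, and 36 with every cell thinned to 800 UMIs. The 85 genes higher in the monocyte side became 334 and 29 at folds of 2 and 8, 142 with the mean CPM of single cells and 41 after thinning. Chosen after seeing the data, 0 to 2 UMIs taken as 3 gave 37 genes, and 166 in place of 372 lower than in C1q macrophages. Without the deepest cell of each side, 45 of 321 neutrophil-side levels left their intervals, S100a8, S100a9, Camp and Slfn4 among them, and 6 of 321 monocyte-side levels. Without the 23 cells of high MHC class II, also chosen after seeing the data, 85 of 321 monocyte-side levels did, and the genes at least 4-fold above C1q macrophages went from 190 to 265.

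With 1 UMI worth 82.6 CPM in the neutrophil side, most genes of low level could not be read there. Which of the pooled mice gave the 7 and 89 cells cannot be told, and intervals do not cover differences between mice. No paired analysis was possible because the single cells carry no tag of condition or mouse. The 12 bulk libraries, 2 numbered replicates a group, were described and their groups not compared, with or without a replicate block.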

Other observations

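The 40 monocyte-side cells with 5 or more Ly6c2 UMIs and the 35 without any were compared after these values had been seen. They had a median of 3005 and 1899 UMIs, 14 and 8 of them held 10 or more MHC class II UMIs, and 37 and 26 held Ace.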
